A study of Mus musculus with 2 samples.

Results

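The genes described here are 10 readouts of YAP and SRF activity and of the actin cytoskeleton: Ccn1, Ccn2, Ankrd1, Amotl2, Acta1, Acta2, Tagln, Cnn1, Actb and Actg1. They were taken by symbol from the gene table, which lists 32285 genes, and all 10 were found. Their levels were compared between 2 droplet single-cell libraries made from R1, a line of mouse embryonic stem cells, 1 library per culture and both taken after 72 hours in N2B27 medium. Per the labels, the LB culture grew on gelatin with BMP4 and LIF, a cytokine that holds stem cells in self-renewal. The LBPXRS culture grew on fibronectin, an adhesive matrix protein, with LIF and BMP4 and also PD0325901 (a MEK inhibitor), Xav939 (a tankyrase inhibitor that dampens WNT signalling), SB431542 (an inhibitor of the NODAL and activin receptors) and a compound listed as Resorcyclic lactone, whose target is not given there. Medium and substrate therefore changed together, and an effect of 1 cannot be told apart from an effect of the other. Each culture has 1 library, so the differences have no replicate check, and every interval is an exact interval at 95% for counting error alone.

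YAP is a transcriptional co-activator that enters the nucleus when cells spread on an adhesive surface, where it binds the TEAD factors and drives genes such as Ccn1, Ccn2, Ankrd1 and Amotl2. SRF is a transcription factor that binds the CArG box. Its co-activators of the MRTF family are held back by actin monomers and released when actin polymerises, so that contractile genes such as Acta1, Acta2, Tagln and Cnn1 and the cytoplasmic actins themselves are among its classic targets. Embryonic stem cells in the naive state form rounded colonies and hold little contractile actin, and both programmes are known to rise as cells flatten and differentiate.

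Promoters of 7 of the 10 genes (Ccn1, Ankrd1, Amotl2, Acta1, Acta2, Cnn1 and Actg1) were in the RefSeq table used here, of build GRCm38.p6, as 300 bases around the start of transcription. A CArG box, searched by its consensus, was present in 2 of the 7, Acta1 and Actg1, and in 1.63% of all 32851 promoters of the table. The letters CATTCC on either strand, the core that TEAD factors recognise, were present in 5 of the 7, with 2 matches in Ankrd1 and 1 each in Ccn1, Amotl2, Acta1 and Acta2, and in 14.7% of all promoters. Only the matches in Ccn1 and Acta1 lay in the longest upstream stretch free of annotated exons. Ankrd1 had 0 upstream bases outside exons, and the matches of Amotl2 and Acta2 lay between that stretch and the start. The share of all promoters was counted with exons included. The promoters of Actg1, Acta1 and Ccn1 are shown because the results below turn on Actg1 and Ccn1 and because Acta1 holds both motifs. They are written 5′ to 3′ on the gene's strand, the minus strand in each case, with the matches in capitals and without any exon of the GENCODE annotation. They lie at chr11:120348543-120348677 (Actg1), chr8:123894776-123895025 (Acta1) and chr3:145649986-145650235 (Ccn1). A match is a description of the sequence and was not tested as a binding site.
Actg1: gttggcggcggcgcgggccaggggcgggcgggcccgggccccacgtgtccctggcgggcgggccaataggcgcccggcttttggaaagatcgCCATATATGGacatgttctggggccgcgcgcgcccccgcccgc
Acta1: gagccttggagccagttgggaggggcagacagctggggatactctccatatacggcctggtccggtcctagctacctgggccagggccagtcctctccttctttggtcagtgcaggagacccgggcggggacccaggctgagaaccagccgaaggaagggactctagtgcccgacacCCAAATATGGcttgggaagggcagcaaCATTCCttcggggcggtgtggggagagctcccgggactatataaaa
Ccn1: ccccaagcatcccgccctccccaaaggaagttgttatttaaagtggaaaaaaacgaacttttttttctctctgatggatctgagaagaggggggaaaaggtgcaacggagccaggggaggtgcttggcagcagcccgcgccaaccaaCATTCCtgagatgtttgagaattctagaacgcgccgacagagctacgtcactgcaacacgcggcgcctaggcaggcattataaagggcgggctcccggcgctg

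The kept cells numbered 1783 in LB, with 45490517 UMIs (unique molecular identifiers, 1 per captured RNA molecule) and a median of 25418 per cell, and 2705 in LBPXRS, with 51832444 UMIs and a median of 19058. The labels give both cultures the same line, yet 4 Y-linked genes (Ddx3y, Eif2s3y, Kdm5d and Uty) had 2872 UMIs in LB and 1 in LBPXRS, and genes of chromosomes 8 and 11 had median log2 ratios of -0.59 and -0.55 against -0.14 for all 12618 genes used. Acta1 lies on chromosome 8 and Actg1 on chromosome 11, so their values are also given below less the median of their chromosome. The cultures thus differed in these genes as well as in medium and substrate, and for each of the 10 ratios the 3 cannot be told apart. The libraries shared 10 cell barcodes, of which 8 were among the kept cells. The doublet caller marked 13 LB cells (0.729%) and 1 LBPXRS cell (0.0370%), few enough that doublets may have been missed.

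Summed over cells, the contractile SRF targets and Actg1 were far lower in LBPXRS, while Actb, the other cytoplasmic actin, was nearly level. Levels are UMIs per 1000000 UMIs of the summed cells (CPM), and log2 ratios are of LBPXRS to LB after adding 1 CPM to each. By size alone, 4 of the 10 genes (Acta2, Tagln, Cnn1 and Actg1) fell at least 4-fold with at least 10 CPM in either library, and 0 rose; of all genes used, 1.75% passed this rule as lower and 1.24% as higher. The median log2 ratio of the 10 was -2.14. A log2 ratio of -1 or less was reached by 6 of the 10 and by 11.6% of all genes. All 10 lay below 0, as did 58.0% of all genes. Acta1, Acta2, Ankrd1, Tagln and Cnn1 were above the minimum mean level of 1 CPM only through LB. A sum cannot tell fewer cells of a kind from less RNA per cell, so values for single cells and clusters follow.

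**Figure D1:**
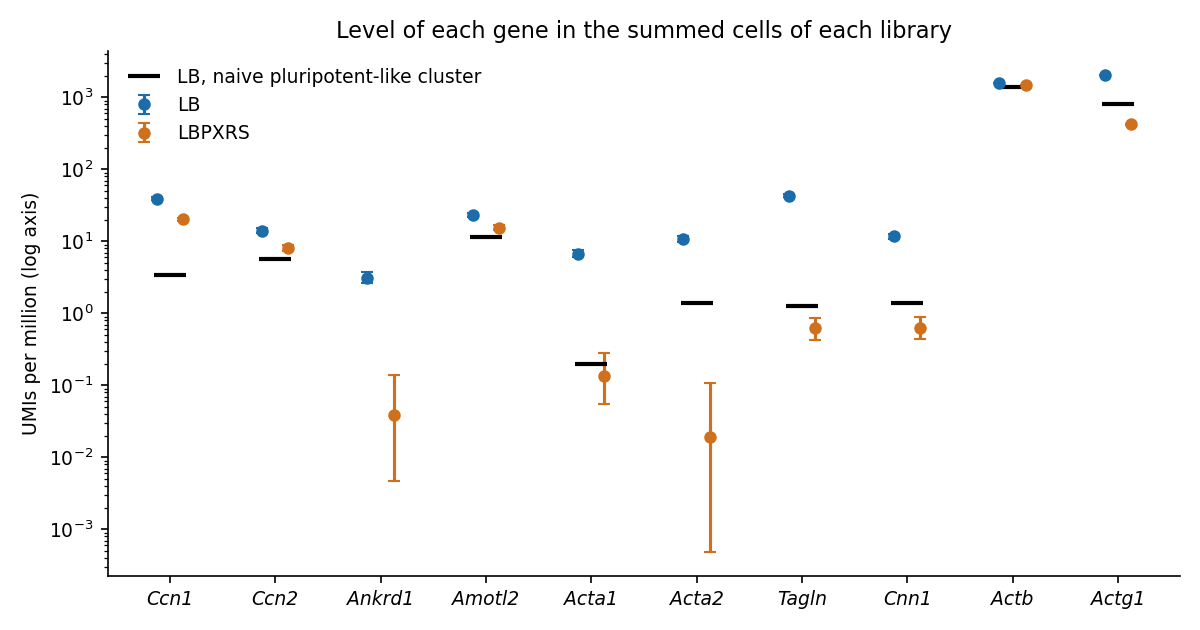
Level of each of the 10 genes in CPM on a log axis, in the summed kept cells of LB (blue) and LBPXRS (orange), with exact 95% Poisson intervals as bars; black dashes give the naive pluripotent-like cluster of LB (525 cells), where Ankrd1 had 0 UMIs and is not drawn. Actb is close in all 3, Actg1 is highest in LB, and Ccn1 in LBPXRS lies between the LB library and its naive pluripotent-like cluster.

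Among the YAP targets, Ccn1 (ENSMUSG00000028195), a secreted matrix protein made within minutes of stimulation, had 1784 UMIs in LB, or 39.2 CPM (37.4 to 41.1), and 1046 in LBPXRS, or 20.2 CPM (19.0 to 21.4). Its log2 ratio was -0.93. Ccn2 (ENSMUSG00000019997), its paralog also known as connective tissue growth factor, stood at 14.1 CPM (13.0 to 15.2) in LB and at 8.01 CPM (7.25 to 8.82) in LBPXRS, a log2 ratio of -0.74. Amotl2 (ENSMUSG00000032531), a junctional scaffold that feeds back on YAP, stood at 23.5 CPM (22.1 to 24.95) in LB and 15.6 CPM (14.5 to 16.7) in LBPXRS, a log2 ratio of -0.56. These 3 genes were thus lower by 1.94-fold, 1.76-fold and 1.51-fold, sizes that did not reach the 4-fold rule. Ankrd1 (ENSMUSG00000024803), a nuclear and sarcomeric ankyrin-repeat protein, had 143 UMIs in LB and 2 in LBPXRS, 81.5-fold fewer per UMI sequenced (counting error 22.1 to 679). It stayed under the 10 CPM that the rule asks for, at 3.14 CPM in LB, and its log2 ratio depends on the amount added, at -1.996 with 1 CPM and -4.55 with 0.1 CPM.

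Among the contractile SRF targets, Tagln (ENSMUSG00000032085), the actin-bundling protein transgelin, fell from 1949 UMIs in LB, or 42.8 CPM (41.0 to 44.8), to 32 in LBPXRS, or 0.617 CPM (0.422 to 0.872). Cnn1 (ENSMUSG00000001349), the actin-binding protein calponin, fell from 11.8 CPM (10.8 to 12.8) to 0.637 CPM (0.438 to 0.894). Their log2 ratios were -4.76 and -2.97. Acta2 (ENSMUSG00000035783), smooth muscle actin, had 487 UMIs in LB, or 10.7 CPM (9.78 to 11.7), and 1 in LBPXRS, which is 555-fold fewer per UMI sequenced (counting error 99.1 to 21962), and a log2 ratio of -3.52. Without the 2 LB cells with the most Acta2 UMIs its LB level was 8.92 CPM, under the 10 CPM of the rule. Acta1 (ENSMUSG00000031972), skeletal muscle actin, was counted 307 times in LB and 7 times in LBPXRS, which is 24.0-fold to 125-fold fewer per UMI sequenced by counting error. At 6.75 CPM in LB it was too low for the rule, and its log2 ratio of -2.77 became -2.18 less the median of chromosome 8.

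The cytoplasmic actins parted. Actb (ENSMUSG00000029580), beta-actin, stood at 1583 CPM (1572 to 1595) in LB and at 1480 CPM (1469 to 1490) in LBPXRS, a log2 ratio of -0.10 that became 0.06 with TMM scaling (trimmed mean of M values, which moved the median of all genes from -0.14 to 0.0031) and so carries no direction. Actg1 (ENSMUSG00000062825), gamma-actin, whose protein differs from beta-actin at a few N-terminal residues, fell from 2057 CPM (2044 to 2070) to 421 CPM (415 to 427), 4.89-fold (4.82 to 4.96). Its log2 ratio was -2.29, or -2.13 with TMM scaling, and -1.73 less the median of chromosome 11, which is under the 4-fold rule. Since each molecule is counted once at its 3′ end, the UMIs of both genes can be set against each other without a length correction. Actg1 supplied 56.5% of the UMIs of both genes in LB (56.3 to 56.7) and 22.1% in LBPXRS (21.9 to 22.4). Their summed level was 3640 and 1901 CPM. Actb and another gene, Lrrc58, share 558 bases of transcript sequence at 91.0% identity; Lrrc58 had 1428 and 2018 UMIs, few beside the 72021 and 76704 of Actb, and no other of the 10 had such a copy by the same search.

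Within LB the contractile genes and Ankrd1 were concentrated in a minority of cells, while Actb and Actg1 were found in nearly all. Clusters were made in each library from variable genes that exclude the 10 and the pathway lists below, so what follows is a description, with no test. Cluster 1 of LB (525 cells) had raised markers of naive pluripotency, cluster 2 (274 cells) of the primitive streak, cluster 4 (354 cells) of mesoderm and cluster 6 (67 cells) of trophoblast, and these clusters are called naive pluripotent-like and so on. Cluster 3 (264 cells), led by genes such as Pim2, Fgf5 and Dnmt3b, and clusters 5 and 7 (61 and 238 cells) have no name. Cluster 3 had 5 raised formative or primed markers and cluster 7 had 5 raised naive ones, but over all markers of that class the cluster's log2 ratio to the remaining cells had a median of 0.76 and 0.84, under the 1 that a name needs. Cluster 5 had 3 raised naive and 3 raised primitive endoderm markers. These thresholds were set with the clusters known. They leave 14.8%, 3.42% and 13.3% of LB cells (clusters 3, 5 and 7) without a name, and all LBPXRS cells. Of these LBPXRS cells, cluster 3 (31.6%) had 3 raised trophoblast markers and cluster 7 (2.96%) 3 raised naive ones. Because markers had to be raised over the rest of the same library, a class common to most of its cells could hardly be named. Naive markers summed to 1139 CPM in LB and 1760 CPM in LBPXRS, so a cluster without a name is not read as lacking a class. The mesoderm-like and trophoblast-like clusters together held 23.6% of LB cells and 22.8% of LB UMIs.

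The trophoblast-like cluster was the highest of the 7 LB clusters for each of the 10 genes, and for 9 of them, all but Acta2, also without the cell of each cluster with the most UMIs of the gene (a setting chosen after seeing the data). Tagln stood there at 442 CPM (412 to 474), in the mesoderm-like cluster at 99.5 CPM (92.9 to 106), in cluster 3 at 22.6 CPM and in the primitive streak-like cluster at 18.5 CPM, while the naive pluripotent-like cluster had 1.26 CPM (0.761 to 1.97). Cnn1 followed the same order over these clusters, from 77.1 CPM through 25.2, 15.7 and 7.24 to 1.40 CPM. Acta2 differed: it stood at 46.1 CPM (36.7 to 57.1) in the trophoblast-like cluster, but only 9 of the 67 cells had it and 1 cell, of 67671 UMIs, held 54 of its 83 UMIs. Without the top cell of each cluster it was at 16.7 CPM (11.2 to 24.0) there and at 37.7 CPM (33.7 to 42.1) in the mesoderm-like cluster (40.9 CPM with that cell), where 65 of 354 cells had it. The other 5 clusters had 2.90 CPM or less. Acta1 was at 100.5 CPM (86.4 to 116) in the trophoblast-like cluster and at 9.05 CPM or less in the other 6. Ankrd1 was at 52.2 CPM (42.2 to 63.8) there and at 5.6 CPM in the mesoderm-like cluster, with 1 UMI in all other LB cells together. Single cells held 75 of the 181 Acta1 and 55 of the 94 Ankrd1 UMIs of the trophoblast-like cluster, which without them was at 61.1 and 22.1 CPM. The top Acta1 and Ccn1 cells there had 67671 UMIs, like the top Acta2 cell, against a library median of 25418. The top Ccn2 and Actb cells both had 59921 UMIs, and those of Cnn1 and Actg1 87935. Cells of equal depth may be the same cell, so values without the top cell may not be independent between these genes. The mesoderm-like and trophoblast-like clusters held 99.3% of the Ankrd1 UMIs of LB, 88.9% of those of Acta2, 84.6% of Tagln, 70.7% of Acta1 and 66.1% of Cnn1. For Acta2 this share was 64.3% when clusters were cut more finely (Leiden resolution 1). At that resolution a cluster of 79 cells had 6 raised mesoderm markers but no name.

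**Figure D2:**
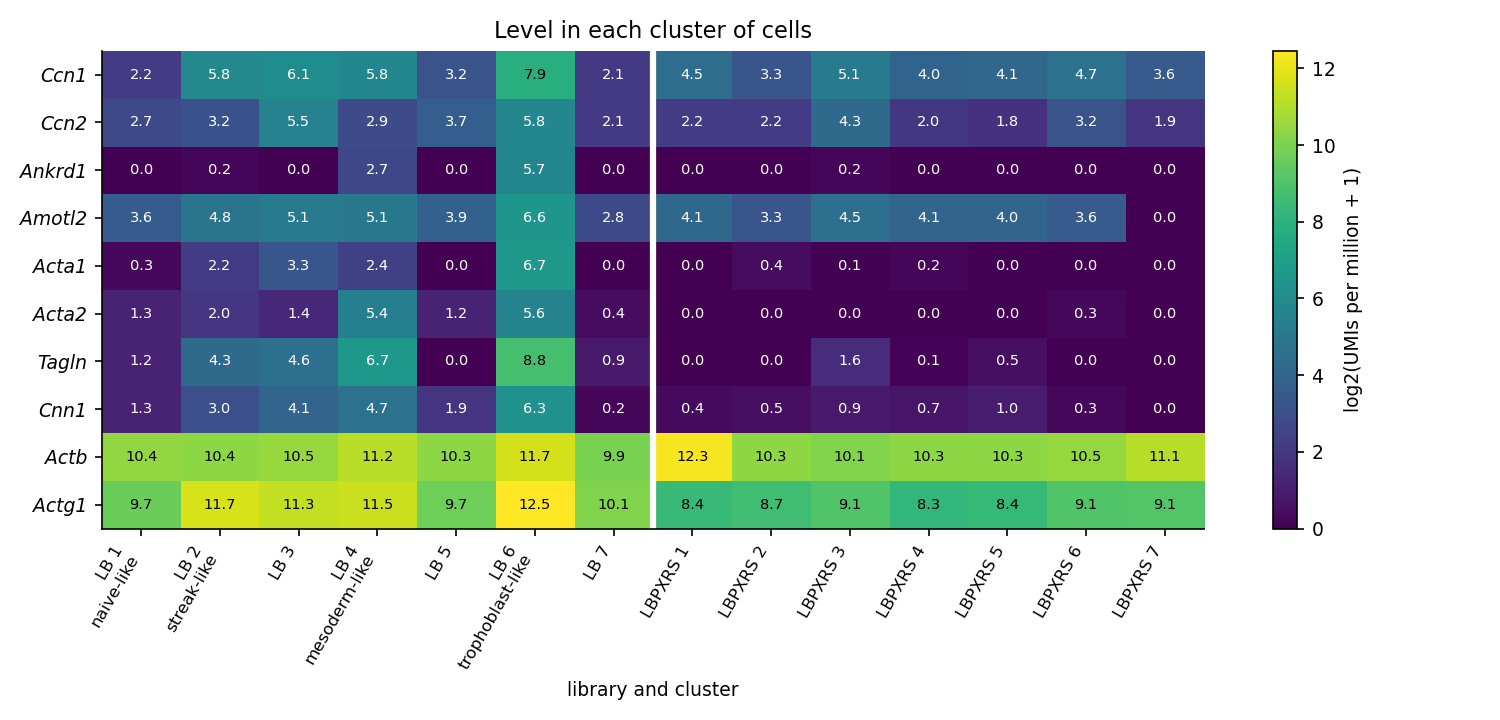
Heat map of log2(CPM + 1) of the 10 genes (vertical) in the 7 clusters of each library (horizontal, LB left and LBPXRS right of the white line), with the value printed in each box and the name of a cluster where it has one. The trophoblast-like column is the highest of LB for each gene, for Acta2 only through 1 cell with 54 of 83 UMIs, and Acta1, Acta2, Tagln and Cnn1 are at 1.95 CPM or less in every LBPXRS column, a limit set by Tagln in cluster 3, where 1 cell held 22 of 29 UMIs.

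The YAP targets other than Ankrd1 were spread more widely. Ccn1 was at 232 CPM (210 to 255) in the trophoblast-like cluster, at 66.6 CPM in cluster 3, 56.3 CPM in the primitive streak-like and 53.7 CPM (48.9 to 58.8) in the mesoderm-like cluster, and at 3.46 CPM (2.58 to 4.53) in the naive pluripotent-like one. Ccn2 had its second peak elsewhere, at 45.4 CPM in cluster 3 against 53.3 CPM (43.2 to 65.1) in the trophoblast-like and 6.30 CPM (4.74 to 8.23) in the mesoderm-like cluster. Amotl2 ranged from 6.05 CPM in cluster 7 to 93.2 CPM. The mesoderm-like and trophoblast-like clusters held 49.2% of the Ccn1 UMIs, 41.5% of those of Amotl2 and 23.4% of those of Ccn2, the last near their share of all UMIs.

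Since mesoderm-like and trophoblast-like cells held much of the LB signal, LBPXRS was also set against parts of LB. Against the naive pluripotent-like LB cells alone, Ccn1 turned: 3.46 CPM in those cells and 20.2 CPM in LBPXRS, a log2 ratio of 2.25, past the 4-fold rule (1.49% of 12204 genes passed it as higher). It was 2.04 and 2.32 with the naive pluripotent-like cells of 2 other clusterings, chosen after seeing the data, in which 1.68% and 1.5% of all genes passed as higher and 0.702% and 0.894% as lower. Of the 7 LBPXRS clusters, 6 had intervals above that of the naive pluripotent-like cells (2.58 to 4.53 CPM), the lowest being cluster 2 at 8.72 CPM (7.14 to 10.6); cluster 7, with 4 UMIs, was at 10.95 CPM (2.98 to 28.0), which overlaps it. Amotl2 changed sign, to a log2 ratio of 0.41, with 11.4 CPM (9.79 to 13.3) in the naive pluripotent-like cells, and was at 0.27 with those of Leiden resolution 1. Ccn2, at 5.72 CPM (4.57 to 7.06) in those cells, had a log2 ratio of 0.42 that rested on 2 LBPXRS cells described below. It was 0.09 without the 2 cells of each side with the most Ccn2 UMIs (5.27 and 5.68 CPM) and 0.12 at Leiden resolution 1, so no direction is read from it. Actg1 kept its sign at -0.96, with 819 CPM (805 to 834) in those cells, under the 4-fold rule, and stood at -0.60 less the median of chromosome 11 in that comparison. Tagln, Cnn1 and Acta2 stood at -0.48, -0.55 and -1.23 there (-0.89, -0.50 and -0.62 without the top 2 cells of each side). Acta1 was at -0.08, with 0.1995 CPM in those cells and 0.135 CPM in LBPXRS, and Ankrd1 had 0 UMIs there and 2 in LBPXRS. In this comparison 0 of the 10 passed the rule as lower, as did 0.918% of all genes. Against all LB cells outside the mesoderm-like and trophoblast-like clusters, also chosen after seeing the data, Ccn2 was at -0.73, Ccn1 at -0.34 and Amotl2 at -0.18, beside a median of -0.09 for all genes, so the turn of Ccn1 and Amotl2 was seen against naive pluripotent-like cells and not against this wider part of LB. Ankrd1 had 1 UMI in this part of LB (0.0285 CPM) and 2 in LBPXRS, too few for a ratio. There Tagln was at -2.56, Actg1 at -1.99, Cnn1 at -1.92, Acta1 at -1.65 and Acta2 at -1.32, and again 0 passed the rule because their level was under 10 CPM or their ratio under 4-fold; 1.32% of all genes passed it as lower and 1.1% as higher in that comparison.

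Within LBPXRS the YAP targets were highest in cluster 3 (854 cells), which is led by the epithelial keratins Krt8 and Krt18. Ccn1 was at 33.6 CPM there and lowest, at 8.72 CPM, in cluster 2, led by Gata2, Dusp4 and Aqp3. Ccn2 was at 18.5 CPM in cluster 3 and between 2.42 and 8.19 CPM in the other 6, and without the cell with the most Ccn2 UMIs cluster 3 was at 12.9 CPM. Amotl2 was at 22.3 CPM in cluster 3, and at 0 UMIs in cluster 7, a group of 80 cells with a median of 3288 UMIs and almost no mitochondrial RNA. Of the contractile genes, Tagln was at 1.95 CPM in cluster 3 but at 0.471 CPM (0.189 to 0.971) without 1 cell that held 22 of its 29 UMIs there, Cnn1 was at or under 1.01 CPM in each cluster, Acta1 at or under 0.329 CPM, and Acta2 had its only UMI in cluster 6.

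Part of these low totals came from single cells. In LBPXRS, 2 cells held 83 and 38 of the 415 Ccn2 UMIs (29.2%), and 1 other cell held 22 of the 32 Tagln UMIs. Without the 2 cells of each library with the most UMIs of the gene, a setting chosen after seeing the data, the log2 ratio of Ccn2 was -1.11 and that of Tagln -5.09. These 3 cells lay in cluster 3 and had depths of 15954, 15089 and 9499 UMIs. They had 90 to 172 UMIs of Sparc and 49 to 88 of Serpinh1, both made by cells that secrete basement membrane, as well as 19 to 81 of Col4a1, a basement membrane collagen. They had 49 to 153 UMIs of Actg1, 0 to 2 of the naive marker Zfp42 and 0 of Nanog. In LB, 1 cell held 55 of the 143 Ankrd1 UMIs (38.5%) and 1 held 75 of the 307 Acta1 UMIs (24.4%), and without the top 2 cells of each library the log2 ratio of Acta1 was -2.34. Ankrd1 then had 72 UMIs in LB, or 1.58 CPM, and 0 in LBPXRS, so that a log2 ratio would rest on the pseudocount and is not given.

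The share of cells in which a gene was seen was compared after drawing 5000 UMIs from each cell. This kept 1733 LB and 2621 LBPXRS cells and left out 84 shallower ones of LBPXRS and 50 of LB, with median depths of 25621 and 19311 UMIs before thinning. At this depth 92.4% of LB cells (91.0 to 93.6) had Actg1, against 69.4% in LBPXRS (67.6 to 71.2). At full depth these shares were 99.4% and 89.9%. Actb was present in 97.4% (96.5 to 98.1) and 96.0% (95.2 to 96.7). Tagln was present in 7.39% of the LB cells (6.20 to 8.72) but in 2 LBPXRS cells, or 0.0763% (up to 0.275). At full depth the Tagln shares were 16.9% and 0.370%. Cnn1 was found in 3.69% (2.86 to 4.69) and 0.534% (0.292 to 0.895), and Acta1 in 26 LB cells (0.982 to 2.19%) and 3 LBPXRS ones, or 0.114% (0.0236 to 0.334). Acta2 and Ankrd1 were found in 2.60% (1.90 to 3.46) and 0.692% (0.358 to 1.21) of LB cells and in 0 of 2621 LBPXRS cells. Of these LBPXRS cells 3 counts would be 0.114%, and the exact upper limit is 0.141%. That limit is for detection at 5000 UMIs per cell. With 10000 UMIs drawn, each of the 2 genes was found in 1 of 2509 LBPXRS cells.

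Free RNA in droplets can give a UMI in a cell that does not express the gene. In the 521 thinned naive pluripotent-like LB cells (median depth 28395 UMIs), Tagln was found in 0.768% (0.210 to 1.95), Cnn1 in 0.384% (0.0465 to 1.38) and Acta1 in 0.192%, each time as 1 UMI in a cell, which is read as an upper estimate of background in LB. Acta2 was found in 1.15% of them (0.424 to 2.49), but at full depth 1 of these cells held 11 of its 21 UMIs, so that share is not background alone. Background in LBPXRS, whose RNA held far fewer UMIs of these genes, was not measured. There Acta1 and Cnn1 came as 1 UMI per thinned cell, and 1 of the 2 thinned cells with Tagln held 14 UMIs. Ccn1 was present in 11.3% (9.86 to 12.9) of all LB cells, in 8.51% (7.47 to 9.64) of all LBPXRS cells and in 1.73% of the naive pluripotent-like LB cells (0.793 to 3.25). Without thinning, Ccn1 was found in 25.6% of LB and 24.1% of LBPXRS cells. Ccn2 was found in 5.31% and 3.05%, Amotl2 in 10.2% and 7.71% of thinned LB and LBPXRS cells. With 10000 UMIs drawn per cell the Ccn1 share was 16.7% in LB (14.98 to 18.6) and 15.5% in LBPXRS (14.1 to 16.9), so the intervals, which part at 5000 UMIs, overlap there and no order is read from them.

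Spread across cells differed by gene and library. The variance of the thinned counts divided by their mean, which is near 1 for counting noise alone, was 10.9 and 9.77 for Actb in LB and LBPXRS, and 8.89 and 4.29 for Actg1. This ratio grows with the mean, which was 10.3 and 2.09 UMIs for Actg1. The variance beyond counting noise divided by the squared mean went the other way for Actg1, at 0.764 in LB and 1.57 in LBPXRS, and was 1.26 and 1.21 for Actb. In LB the variance over the mean was 5.37 for Tagln, 2.80 for Acta2, 2.49 for Ccn1 and 1.28 for Amotl2. In LBPXRS it was 1.36 for Ccn1 and 1.13 for Amotl2, whose means were low at 0.101 and 0.0847 UMIs, and 7.74 for Ccn2 and 13.1 for Tagln, genes with the single high cells described above. Relative to the squared mean, the excess variance of Ccn1 was 3.59 in LBPXRS, above that of Actb and Actg1 there, and 8.30 in LB. That of Amotl2 was 1.56 in LBPXRS and 2.37 in LB. In LB this measure was 103 for Ankrd1, 39.6 for Acta2, 37.5 for Acta1, 24.5 for Tagln, 11.5 for Cnn1 and 7.16 for Ccn2, each above that of Actb and Actg1. The median cell had 928 CPM of Actb in LB and 907 CPM in LBPXRS, and the cell at the 95th percentile had 5691 and 5180 CPM. For Actg1 the median cell had 1781 and 286 CPM and the 95th percentile 5294 and 1258 CPM, so the difference was present at both points.

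**Figure D3:**
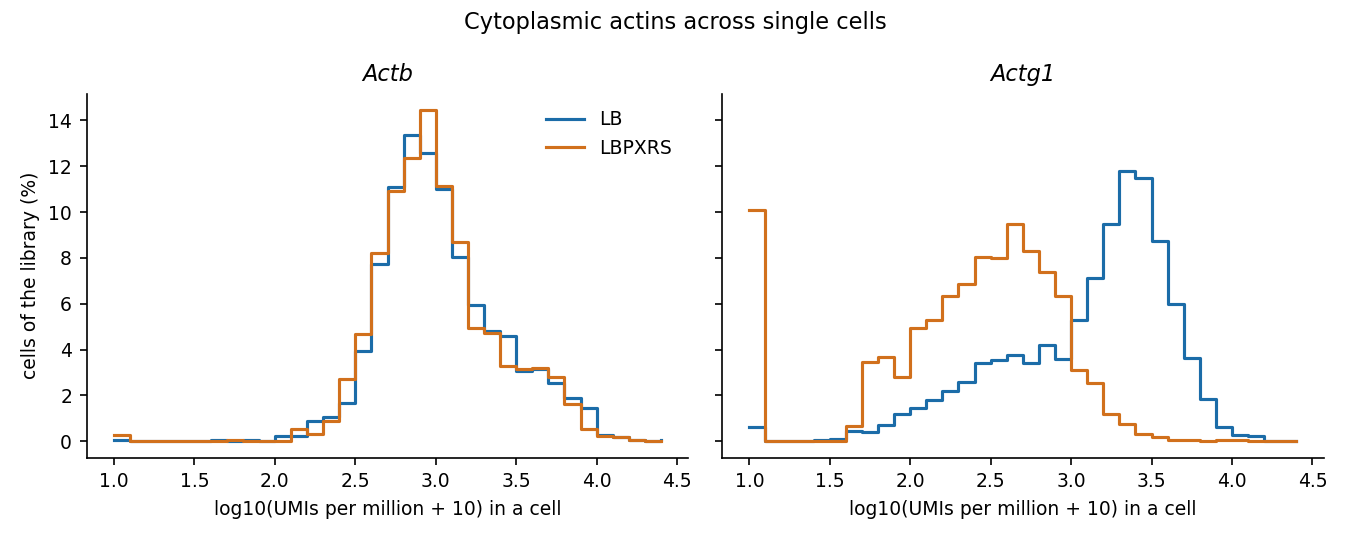
Share of cells (%) in each bin of log10(CPM + 10) per cell for Actb (left) and Actg1 (right), LB in blue and LBPXRS in orange; cells without a UMI are in the leftmost bin. The Actb curves nearly coincide, with medians of 928 and 907 CPM, and the Actg1 curve of LBPXRS lies to the left of that of LB, with medians of 286 and 1781.

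The balance of the cytoplasmic actins varied between clusters of both libraries. The Actg1 share of the UMIs of Actb and Actg1 was lowest in LB in the naive pluripotent-like cluster, at 37.1% (36.6 to 37.6), near that of cluster 5 at 38.8% (36.4 to 41.2), whose intervals overlap. It was highest in the primitive streak-like cluster, at 72.0% (71.5 to 72.6). In LBPXRS it ran from 6.52% (6.15 to 6.90) in cluster 1 to 32.5% (31.9 to 33.1) in cluster 3, so each LBPXRS cluster was below each LB cluster. With both genes in LBPXRS taken less the median log2 ratio of their chromosome, cluster 3 was at 40.2%, above LB clusters 1 and 5, and the other 6 LBPXRS clusters were at 8.84% to 34.4%. Cluster 1 of LBPXRS (156 cells) had 4925 CPM of Actb, above each of the other 13 clusters, and 343 CPM of Actg1. In the trophoblast-like cluster of LB both were high, at 3250 and 5628 CPM.

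**Figure D4:**
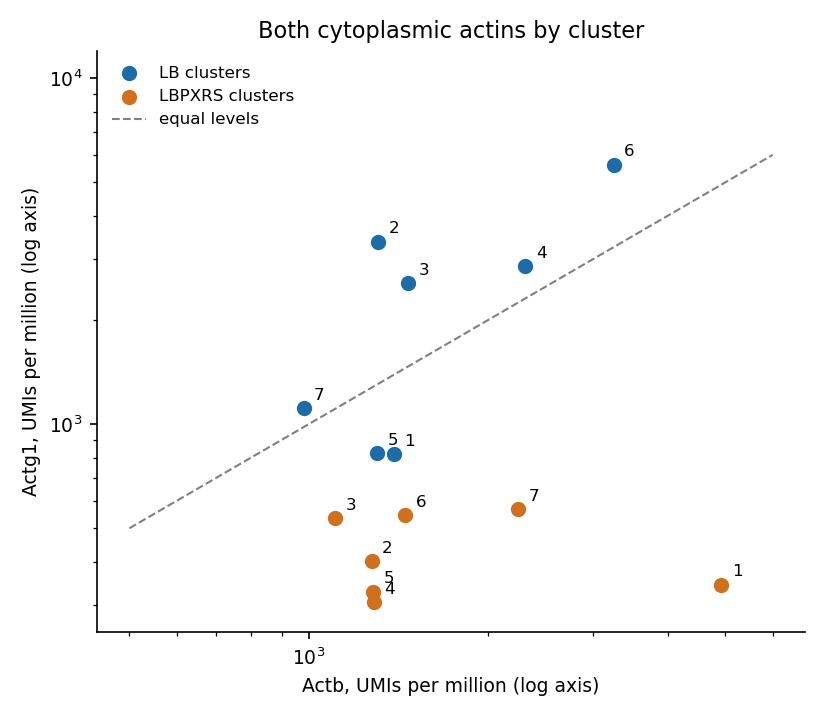
Actb (horizontal) against Actg1 (vertical) in CPM, both on log axes, for the 7 clusters of LB (blue) and of LBPXRS (orange), numbered as in the text; the dashed line marks equal levels. LBPXRS clusters lie below those of LB, and LBPXRS cluster 1 lies far to the right at 4925 CPM of Actb and 343 of Actg1.

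Over single cells, Actb and Actg1 were at most weakly related. With cells thinned to 10000 UMIs (1666 LB and 2509 LBPXRS cells), Pearson's r between them was 0.17 in LB and 0.04 in LBPXRS. The 20 genes with the highest correlation to Actb were then listed in each library, and 11 genes (55% of each list) were in both: Amt, Cbx3, Insig1, Kdelr2, Kdm6b, Myef2, Pfas, Slc24a5, Slc39a1, Upf1 and Wtap. Cbx3, a heterochromatin protein, had r of 0.64 in LB and 0.68 in LBPXRS, and Slc39a1, a zinc importer, 0.57 and 0.51. The r of these 11 genes with Actg1 lay between -0.11 and 0.14. The lists of Actg1 shared 1 gene, Tagln2. At 5000 UMIs per cell the shared genes numbered 8 for Actb and 2 for Actg1. These correlations were looked at after the Actb-high cluster had been seen, they are over cells of 1 library each, and cells share its depth and free RNA.

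Among the 10 genes, the highest correlations over LB cells joined contractile genes with each other or with Actg1, with r of 0.42 between Tagln and Cnn1, 0.36 between Acta1 and Tagln, 0.34 between Acta2 and Cnn1 and 0.34 between Tagln and Actg1. At 5000 UMIs per cell these were 0.31, 0.39, 0.18 and 0.36, so the pair of Acta2 and Cnn1 was no longer among the highest. Over the 14 clusters of both libraries, the genes most like them were named out of 7147 candidates by Pearson's r of log2(CPM + 1). Tpm4, a tropomyosin that binds along actin filaments, was the most like both Tagln (0.98) and Cnn1 (0.97). For Acta2 it was Pmp22 (0.99), followed by Igf2 and Hand1. For Ankrd1 it was Dkk1 (0.98), for Ccn1 F2r (0.95), a thrombin receptor, for Amotl2 Furin (0.97), a protein convertase, and for Actg1 Ube2b (0.97). Ccn2 and Actb had less close partners, Tmem54 (0.83) and Mtmr2 (0.86). The points are clusters of 2 libraries and are not independent samples.

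Other targets of both factors were read from lists drawn up for this comparison. Of 26 other YAP targets, 21 had a mean of at least 1 CPM, with a median log2 ratio of -0.32. Of these, 9 were above 0 and 12 below (42.0% and 58.0% of all genes), 5 at 1 or more and 3 at -1 or less (8.53% and 11.6% of all genes). Members went far in both directions. Igfbp3, which binds insulin-like growth factors, fell from 86.1 to 1.64 CPM and Tgfb2, a TGF-beta ligand, from 15.6 to 0.251 CPM, while Myof, a membrane repair protein, rose from 3.06 to 22.6 CPM, Slit2, a guidance ligand, from 1.91 to 11.1 CPM and F3, tissue factor, from 3.39 to 16.6 CPM. Fstl1 was at 13.9 and 7.43 CPM. Against naive pluripotent-like LB cells the median of this list was 0.93, and it was 0.77 and 0.85 with those of the 2 other clusterings.

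Of 19 genes of the Hippo and YAP pathway, 18 were used, with a median of -0.36, 4 above and 14 below 0 (42.0% and 58.0% of all genes). Amot, an angiomotin that holds YAP at junctions, fell from 1211 UMIs in LB, or 26.6 CPM, to 21, or 0.405 CPM. Stk3, a Hippo kinase, was at 5.94 and 14.1 CPM (log2 ratio 1.13), Wwtr1, which encodes the YAP paralog TAZ, at 17.7 and 27.5 CPM (0.61), Tead1 at 26.7 and 16.0 CPM (-0.71) and the kinase Taok1 at 31.2 and 15.4 CPM (-0.97). Amot was the only one of the 18 past 4-fold, where 1.75% of all genes passed the rule as lower and 1.24% as higher. Yap1 itself stood at -0.52.

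Of 23 other SRF and MRTF targets, 21 were used, with a median of -0.92, the lowest of the 5 lists; 18 were below 0 and 9 at -1 or less, against 58.0% and 11.6% of all genes. Zyx, the focal adhesion protein zyxin, fell from 42.0 to 6.95 CPM. Myl9, a myosin regulatory light chain, was at 13.7 and 2.93 CPM (-1.90), and Tpm4 at 147 and 45.0 CPM (-1.69). Of the 3 above 0, Lmod1, an actin filament nucleator of muscle, had the highest log2 ratio at low levels (1.17 and 2.35 CPM, 0.63), and the others were Cnn3, a calponin not limited to muscle, at 218 and 284 CPM (0.38) and Lima1 at 61.1 and 72.1 CPM (0.24). The median of this list was 0.07 against naive pluripotent-like LB cells.

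Of 17 SRF and MRTF regulators, 15 were used, with a median of -0.03, 7 above and 8 below 0 (42.0% and 58.0% of all genes). Srf was at 11.9 and 6.98 CPM (-0.69), the GTPases Rhob and Rhoc at 18.9 and 5.90 CPM (-1.53) and at 73.0 and 43.3 CPM (-0.74), and Rhoa at 168 and 218 CPM (0.38). Arhgef2, a RhoA activator, was at 21.1 and 31.3 CPM (0.55), and Elk1, another partner of SRF, at 12.3 and 14.7 CPM (0.24). Of 25 other actin genes and actin regulators, 23 were used, with a median of -0.18, near that of all genes. Of these, 8 were above 0 and 15 below, 3 of them at -1 or less. Of all genes, 58.0% were below 0 and 11.6% at -1 or less, so these counts are near those shares. The 3 at -1 or less were Msn, which links actin to the membrane, at 34.5 and 11.2 CPM (-1.54), Marcks at 74.1 and 27.7 CPM (-1.39) and Actn4, an actin crosslinker, at 104 and 50.8 CPM (-1.01). Ezr, a paralog of Msn, was at 74.3 and 88.1 CPM (0.24), Arpc1a at 137 and 151 CPM (0.15) and Cfl2 at 45.8 and 50.7 CPM (0.15).

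**Figure D5:**
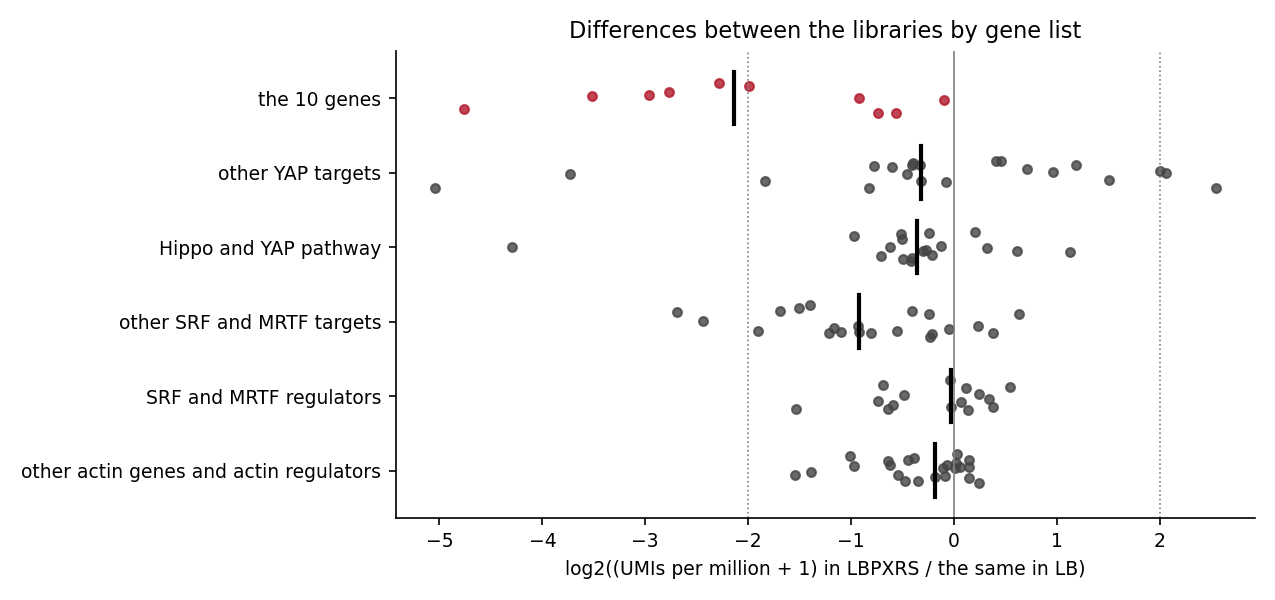
Log2 ratio of LBPXRS to LB, with 1 CPM added to each, for the 10 genes (red) and for the used genes of the 5 other lists (grey); points are single genes, spread vertically at random for visibility, black bars are list medians and dotted lines mark 4-fold. The 10 genes have a median of -2.14 and the other SRF and MRTF targets of -0.92, while the other 4 lists have medians from -0.36 to -0.03.

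Markers of other cell types moved in both directions between the libraries. Of all genes used, 58.0% had a log2 ratio below 0, 42.0% above 0 and 11.6% at -1 or less. Some markers, such as Hand1 (84.1 and 0 CPM) and Lhx1 (11.3 and 0.0579 CPM), passed the mean of 1 CPM only through 1 library. The counts of used genes higher or lower are therefore partly set by that filter. The summed level of 14 mesoderm markers was 298 CPM in LB and 6.46 CPM in LBPXRS, with 13 of 13 used genes lower, and that of 10 primitive streak markers 313 and 16.9 CPM, with 7 of 8 used genes lower. Trophoblast markers (12 genes) summed to 569 and 133 CPM, with 5 used genes higher and 6 lower. Without Krt8, Krt18 and Krt19 their sum was 89.9 and 105 CPM, with genes in both directions. Gata2 was at 1.69 and 26.8 CPM and Tfap2c at 21.5 and 49.1 CPM, while Cdx2 fell from 45.2 to 0.0193 CPM and Tfap2a from 3.89 to 0.791 CPM. Primitive endoderm markers (14 genes) summed to 225 and 577 CPM, with 6 used genes higher and 4 lower, and without Sparc to 63.5 and 117 CPM. The sum of 11 naive markers was 1139 and 1760 CPM, with 10 higher and 1 lower. That of 11 formative or primed markers was 681 and 153 CPM, with 1 higher and 10 lower, all 10 of them at least 2-fold, and a median log2 ratio of -2.06. Cluster 3 of LB, with 5 of these markers raised, held 26.8% of the Ccn1 and 50.9% of the Ccn2 UMIs of LB in 14.8% of its cells. Fibroblast markers summed to 33.3 and 11.5 CPM, with 8 of 8 used genes lower. Col1a1 had 355 and 91 UMIs, Thy1 239 and 142 and Pdgfrb 139 and 30, and Col3a1, Postn, Lum and Dcn had 0 to 2 UMIs in each library. Smooth and heart muscle markers summed to 57.1 and 87.9 CPM, with 3 used genes higher and 3 lower. Without Myl4 (10.4 and 65.1 CPM) their sum was 46.6 and 22.8 CPM, with Myl7 at 26.7 and 4.88 CPM, and Myh11, the smooth muscle myosin, had 3 and 1 UMIs. Endothelial markers summed to 103 and 114 CPM, with 2 used genes higher and 3 lower. Pecam1 was at 16.5 and 34.0 CPM and Tek at 0.747 and 5.65 CPM, while Etv2 was at 13.8 and 7.27 CPM. Cdh5, too low to be used, had 19 and 0 UMIs. Neural markers summed to 36.3 and 14.5 CPM, with 2 of 2 used genes lower, and 10 markers of two-cell-like cells had 1 and 0 UMIs. The part of each of these cell types in the differences between the libraries was not tested beyond the cluster values above.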

How the data were processed

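Per the file headers and the submitters' processing notes, the authors made the deposited matrices with Cell Ranger 4.0.0 on mouse build mm10, as raw UMI counts per gene and cell barcode; the settings of cell calling are not given in the sources used here. Per the labels' protocols the libraries were 10x Genomics 3′ version 2. From these counts, barcodes with fewer than 1000 genes or more than 10% mitochondrial UMIs were left out (225 of 2008 in LB, 406 of 3111 in LBPXRS), UMIs were summed per library and scaled to 1000000 (CPM), and log2 ratios used a pseudocount of 1, which understates changes of low genes. Genes with a mean of at least 1 CPM were used; a call is at least 4-fold at 10 CPM or more in either library. No test was possible with 1 library per culture.

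Cells were clustered per library with scanpy 1.11.5 (2000 variable genes, 30 components, 15 neighbours, Leiden resolution 0.5). A cluster was named only where at least 3 markers of a class were raised (at least 2-fold over the rest, at 5 CPM or more), more than of any other class, with a median log2 ratio of at least 1 over the class and no other class with more markers among its top 10 genes; these thresholds were set with the clusters known. Intervals are Poisson, Clopper-Pearson for shares, and conditional binomial for ratios. Tools were Python 3.11.15, scipy 1.17.1, edgeR 4.0.16 for TMM factors and blastn 2.17.0 (last 600 bases of each gene against GENCODE transcripts, at least 90% identity over 91 bases). The calculations were tested on simulated data. The 10 genes and all lists were chosen with earlier results of these data known. Named genes were the 10, the 3 highest and 3 lowest of each pathway list at 10 CPM or more, and the genes most alike over clusters; others were chosen after their values were seen. The gene most like Acta1 is not reported here.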

Additional observations from a re-analysis of the deposited data

How the results depend on the processing

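The call of 4 genes as lower held with TMM scaling, a pseudocount of 0.1, all deposited barcodes, stricter cell filters, marked doublets left out and cells under 0.5% mitochondrial UMIs left out. It was 3 with the mean of per-cell CPM, where Acta2 was under 10 CPM, and 3 less the median of the same chromosome, without Actg1. It was 0 against the 3 selections of naive pluripotent-like LB cells and against LB cells outside the mesoderm-like and trophoblast-like clusters. The count of genes higher was 1, Ccn1, in each of the 3 naive pluripotent-like selections (main clustering, Leiden resolution 1, all variable genes). In that order the median log2 ratio of the Hippo and YAP pathway was -0.085, -0.015 and -0.037, that of the other SRF and MRTF targets 0.072, 0.35 and 0.073, and that of the other actin genes and actin regulators 0.12, 0.057 and 0.10. The SRF and MRTF regulators were at 0.34 at Leiden resolution 1 and 0.25 with all variable genes. Outside the mesoderm-like and trophoblast-like clusters the other SRF and MRTF targets were at -0.13 and the actin regulators at 0.039. The log2 ratio of Actb ranged from -0.13 to 1.01 over the alternatives, the highest against the 107 naive pluripotent-like cells of Leiden resolution 1, which had 734 CPM of Actb. Why values moved was not tested. No paired analysis was possible because each culture has 1 library, and none could be left out. Genes with few UMIs, above all Ankrd1, Acta1 and Acta2 in LBPXRS, are limited by depth.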
